A study of Mus musculus with 20 samples.

Results

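The comparison described here is that of lipopolysaccharide (LPS) with saline in the hippocampus of wild-type mice. It rests on 10 of the 20 RNA sequencing libraries of the study, namely the 5 wild-type LPS libraries and the 5 wild-type saline libraries, chosen by their labels and by no measured value. All animals were male, 12 weeks old and labelled as C57BL/6J. They were injected once into the peritoneum, with saline or with LPS at 3 mg/kg, and the hippocampus was taken 7 days later. The other 10 libraries came from mice that lacked Fkbp5 and had been given the same 2 treatments. They entered the statistical fit, where they helped to estimate the spread, and they are otherwise used only to show where the wild-type response differed. The labels do not say whether each library came from an animal of its own, so p-values measure the spread between these libraries.

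LPS is a component of the outer membrane of Gram-negative bacteria. It is bound by LPS-binding protein and CD14 and recognised by Toll-like receptor 4, which acts through MyD88 and TRIF to switch on NF-kB and type I interferon signalling. In the brain, endothelial cells, perivascular macrophages, microglia and astrocytes respond to it. The early cytokine wave is known to be short, whereas antigen presentation, complement and glial genes can stay raised for longer.

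The replicate numbers split the libraries into a pair of sets, replicates 1 and 2 against replicates 3 to 5. The first principal component, which separated these sets, held 64.4% of the variance among the wild-type libraries. The share of counts from mitochondrially encoded protein genes was 4.03% to 4.65% in the first set and 7.94% to 9.56% in the second. Across all 20 libraries, 10565 of 16419 genes (64.3%) differed between the sets at an adjusted p under 0.05, so the set was a term in every test below. Total counts in the wild-type libraries were 16652992 to 21810400. Defining markers of the hippocampus were present, among them Prox1 of dentate granule cells at 130 ± 28.2 CPM (counts per 1000000 counts; SD, n = 5) in the saline group and 127 ± 20.8 in the LPS group. Libraries 1 and 4 of the LPS group stood apart: the summed level of the 14 thalamus markers was 293 and 284 CPM there, against 160 to 207 CPM in the other wild-type libraries. One knockout LPS library, number 1, was at 259 CPM. Results are therefore also given without these 3 libraries where this changes them.

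Serum amyloid A3, Lag3 and lysozyme 2 rose after LPS, and no gene fell at an adjusted p under 0.05. These 3 of 16419 tested genes are 0.0183% of the genes. Saa3 encodes an acute phase protein made by macrophages, glia and endothelium. It had no read in any of the saline libraries. After LPS its level was 1.89, 2.80, 0.451, 0.960 and 0.196 CPM in libraries 1 to 5, which is 143 reads in all, from 69 in library 2 down to 3 in library 5. All LPS libraries thus lay above all saline libraries, although the LPS libraries differed widely among themselves. Against the limit of 3 counts that a count of 0 allows over the whole saline group, Saa3 was at least 46.7-fold higher after LPS (adjusted p = 0.0047, edgeR quasi-likelihood test). An exact 2-sided permutation of the libraries within their sets gave p = 0.01667, the smallest value that its 120 rearrangements can give. Any gene separated within both sets reaches this value, and 162 genes (0.987%) were so on the higher side and 166 (1.01%) on the lower. Lag3 and Lyz2 had the same value. Saa3 was picked by its p in these libraries, so the permutation adds no separate support. Leaving out any 1 of the 10 libraries kept the call (adjusted p 0.00122 to 0.0258), whereas a fit without the term for the library set ended it (adjusted p = 0.523).

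Lag3 encodes an inhibitory receptor that binds MHC class II and that is known from exhausted T cells and from microglia. Its level was 5.48, 5.35, 6.08, 5.45 and 6.36 CPM in saline libraries 1 to 5. After LPS it was 11, 13.3, 12.1, 9.72 and 10.7 CPM. The groups did not overlap and each was narrow, so that the lowest LPS library was still well above the highest saline library. The log2 fold change was 0.99 ± 0.17 (SE), with an adjusted p of 0.0498 in edgeR, and it was 1.18 in replicates 1 and 2 alone and 0.87 in replicates 3 to 5 alone. Of the defining T cell genes, Cd3e had 2 counts in all saline libraries together and 7 in all LPS libraries, and Trac had 92 and 84. Other lymphocyte genes went both ways at counts too low to test. Cd8b1 had 0 and 5, Gzma 0 and 15 and Gzmb 0 and 9, while Cd4 had 30 and 26 and Nkg7 4 and 2. The cell source of Lag3 was not tested. Without the 3 thalamus-high libraries the log2 fold change of Lag3 was 1.08 (adjusted p = 0.00477). Leaving out any 1 of the 10 libraries kept the log2 fold change at 0.92 to 1.04 but ended the call, with an adjusted p of 0.0884 to 0.278.

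Lyz2 encodes the lysozyme of macrophages and other myeloid cells. Its level was 5.07, 3.46, 2.88, 3.67 and 3.98 CPM after saline and 19.3, 11.8, 6.06, 9.90 and 5.74 CPM after LPS. No LPS library reached down to the saline range, and library 1 was the highest. The log2 fold change was 1.40 ± 0.24 (SE; adjusted p = 0.0498, edgeR). This call was lost without the 3 thalamus-high libraries, where the log2 fold change was 1.04 and the adjusted p 0.829. It was also lost on leaving out any 1 library except LPS library 5; where it was lost the log2 fold change was 1.21 to 1.5. The 12 border macrophage markers summed to 47.7 CPM in LPS library 1 and to 27.1 to 34.3 CPM in the other LPS libraries, against 21.5 to 35.7 CPM after saline. Of the 9 of them that were tested, 0 passed the test, and the defining markers Mrc1 and Lyve1 were present at 2.35 ± 1.13 and 0.449 ± 0.175 CPM after saline and 2.63 ± 1.12 and 0.465 ± 0.449 CPM after LPS (SD, n = 5). Their part in the Lyz2 result was not tested. In bulk tissue, more cells of a type and more RNA per cell cannot be told apart.

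Saa3 and Lyz2 were the 2 of 9 tested acute phase and antimicrobial genes that rose. Of the 9, 8 were above 0 and the median log2 fold change was 0.50. It was 0.32 in replicates 1 and 2 alone, 0.67 in replicates 3 to 5 alone and 0.31 without the 3 thalamus-high libraries. Cp, the ferroxidase ceruloplasmin, was at 7.51 ± 1.2 CPM after saline and 10.7 ± 3.80 CPM after LPS (SD, n = 5; log2 fold change 0.50 ± 0.20 SE, and 0.31 without those libraries). Lag3 was the only one of 9 tested immune checkpoint genes that rose. Vsir, the checkpoint receptor VISTA of microglia, had a log2 fold change of 0.21 ± 0.07 SE (adjusted p = 0.950), and the median of the list was 0.07, or 0.02 without those libraries. The list median was 0.25 in replicates 1 and 2 alone and -0.01 in replicates 3 to 5 alone.

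**Figure D1:**
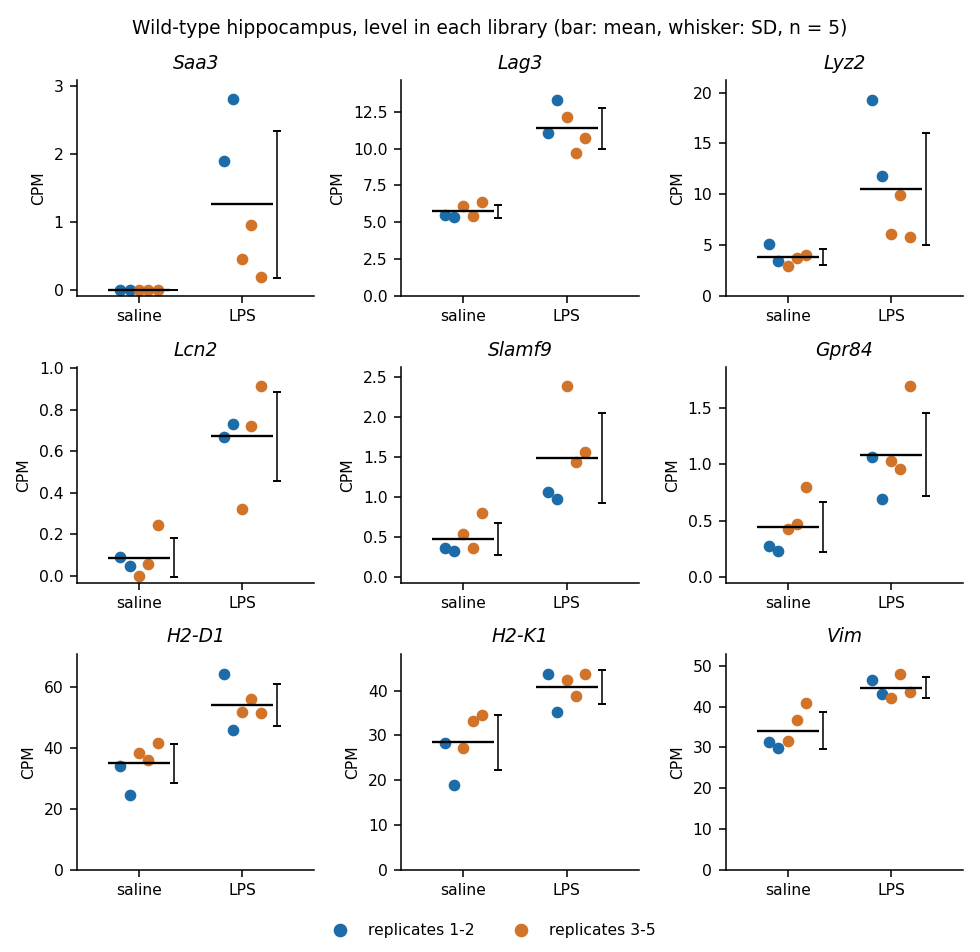
Level (CPM) of 9 genes in each of the 10 wild-type libraries, coloured by library set, with the mean as a bar and the SD as a whisker (n = 5). Saa3, Lag3 and Lyz2 passed the test; for each of them all LPS libraries lie above all saline libraries. The other 6 genes are plotted as values.

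RefSeq promoter sequences (GRCm38.p6) were at hand for Saa3 and Lyz2, and the 250 bases before each start site are shown because these genes rose from a low or absent level. Both are on the minus strand, Saa3 at chr7:46715677-46715926 and Lyz2 at chr10:117282273-117282522, and both are written 5′ to 3′ with matches to the searched motifs in capitals.
Saa3: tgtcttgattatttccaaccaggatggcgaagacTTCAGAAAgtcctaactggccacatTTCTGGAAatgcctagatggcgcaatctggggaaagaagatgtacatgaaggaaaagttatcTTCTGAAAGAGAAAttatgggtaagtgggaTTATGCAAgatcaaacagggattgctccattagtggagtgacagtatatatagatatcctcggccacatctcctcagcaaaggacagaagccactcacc
Lyz2: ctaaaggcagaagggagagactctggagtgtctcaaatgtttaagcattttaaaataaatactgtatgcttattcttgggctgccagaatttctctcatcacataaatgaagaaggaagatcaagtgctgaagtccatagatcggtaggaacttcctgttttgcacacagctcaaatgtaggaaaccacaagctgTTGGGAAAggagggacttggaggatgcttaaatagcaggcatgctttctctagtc
The motifs searched on both strands were GGG and CC with 5 bases of any kind between them (like NF-kB sites), GAAA repeated after 2 bases of any kind (like the interferon-stimulated response element), TTCNNNGAA (like STAT sites) and TTNNGNAA (like C/EBP sites). The Saa3 window held 4 matches to TTNNGNAA and 1 match to the interferon-type motif, and the latter overlapped the third of the former. The Lyz2 window held 1 match to TTNNGNAA. Among 32851 windows of the same length, 36.8% held TTNNGNAA and 2.98% the interferon-type motif, while 7.02% held TTCNNNGAA and 45.8% the NF-kB-type motif. A match is a run of letters in this window and not a shown binding site.

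Across all expressed genes the response was small. The median log2 fold change of the 16419 genes was -0.01, the 5th percentile was at -0.28 and the 95th at 0.39. The precision was sufficient to bound most of them: with a median SE of 0.13, 10648 genes (64.8%) had a 95% interval within 0.5 of 0 on the log2 scale, and so did 9018 of the 9680 genes (93.2%) with at least 10 CPM after saline. A log2 fold change beyond 1 in either direction was seen in 100 genes, 79 higher and 21 lower, and only 46 of these had a mean of 1 CPM or more. At an unadjusted p under 0.05, 478 genes (2.91%) were higher and 224 (1.36%) lower after LPS, 702 genes (4.28%) in all. In all, 7471 genes (45.5%) had a fold change above 0, so higher genes were fewer than lower ones, with the longer tail. By order alone, 162 genes (0.987%) had every LPS library above every saline library within both library sets, and 166 (1.01%) had every LPS library below. With the sets joined, 45 genes (0.274%) had no overlap on the higher side and 28 (0.171%) on the lower side. The tested genes described as without overlap are among these. Without the 3 thalamus-high libraries 2 genes (0.0121%), Lag3 and Saa3, passed the adjusted test, and 316 genes (1.9%) were higher and 215 (1.3%) lower at an unadjusted p under 0.05. Of the 478 and 224 genes, 213 and 85 were still counted.

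**Figure D2:**
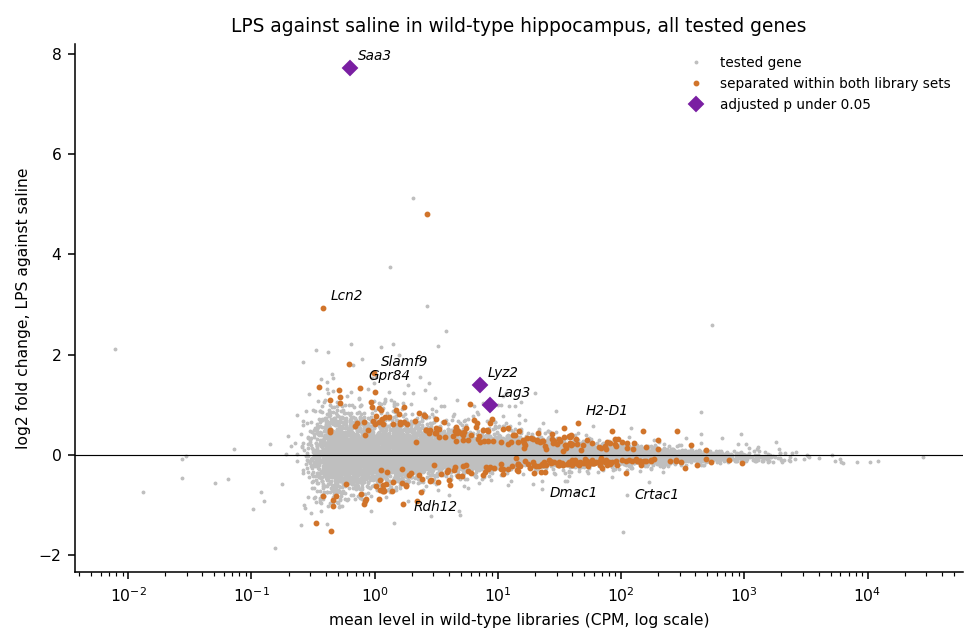
Log2 fold change of LPS against saline for each of the 16419 tested genes against its mean level in the wild-type libraries (CPM, log scale). Grey points are tested genes, orange points are genes separated within both library sets and diamonds are the 3 genes past an adjusted p of 0.05. Most points lie close to 0 and the spread widens below 1 CPM.

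Several other genes on the higher side, some of them known from myeloid cells, did not pass the adjusted threshold and are given as values. Slamf9, a SLAM family receptor of macrophages, had 0.366, 0.323, 0.534, 0.355 and 0.795 CPM after saline and 1.06, 0.974, 2.38, 1.44 and 1.57 CPM after LPS. These groups did not overlap (log2 fold change 1.62 ± 0.32 SE, adjusted p = 0.191). Gpr84, a receptor for medium-chain fatty acids that microglia use in inflammation, had a mean of 0.440 ± 0.223 CPM after saline and 1.09 ± 0.370 CPM after LPS (SD, n = 5; log2 fold change 1.34 ± 0.30 SE, adjusted p = 0.399). Its groups were separated within each library set but overlapped when the sets were joined. Rassf4, a RAS association domain gene, reached 11.8 and 10.4 CPM in LPS libraries 1 and 4 and 5.28 to 6.49 CPM in the other LPS libraries, against 2.60 to 6.18 CPM after saline. Its log2 fold change was 1.01 in all libraries and 0.57 without the 3 thalamus-high ones. Cd52, a small glycoprotein of the leukocyte surface, stood at a log2 fold change of 0.96 ± 0.28 SE (adjusted p = 0.924), and Csf3r, the receptor of granulocyte colony-stimulating factor, at 0.53 ± 0.18 SE (adjusted p = 0.951). Lrrc3, a leucine-rich repeat membrane protein, was at 3.93 to 6.35 CPM after saline and 7.18 to 8.64 CPM after LPS without overlap (adjusted p = 0.399), and Apobec3, a cytidine deaminase of antiviral defence, was separated within both sets (log2 fold change 0.78 ± 0.18 SE).

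Microglial identity genes had small values. Of the 20 tested genes of the homeostatic microglia list, 0 passed the adjusted test, 15 had a fold change above 0 and the median was 0.11, beside -0.01 for all genes. Without the 3 thalamus-high libraries 18 were above 0 and the median was 0.16. Cx3cr1, the fractalkine receptor, was at 59.9 ± 8.49 CPM after saline and 64.4 ± 9.45 CPM after LPS (SD, n = 5). Its 95% interval of the log2 fold change was -0.05 to 0.25. P2ry12, a purinergic receptor of surveying microglia, had an interval of -0.34 to 0.18, and Tmem119, a microglial membrane protein, one of -0.12 to 0.31. For Aif1, which encodes the microglial marker IBA1, the interval was -0.41 to 0.45. At an unadjusted p under 0.05, 2 of the 20 genes of this list were higher, beside 2.91% of all genes. They were Gpr84, the inflammation receptor named above, and Trem2, the lipid receptor of phagocytic microglia, and not Cx3cr1, P2ry12, Tmem119 or Aif1. Without the 3 thalamus-high libraries 4 of the 20 genes were higher at that level, beside 1.9% of all genes. Trem2 had a log2 fold change of 0.37 ± 0.12 SE. Among the 22 tested genes of the activated microglia list, 1 rose (Lyz2), 17 were above 0 and the median was 0.14. Ctss, the lysosomal protease that processes antigen, was at 71.0 ± 22.7 CPM after saline and 97.9 ± 28.6 CPM after LPS (SD, n = 5), with every LPS library above every saline library within each set (log2 fold change 0.47 ± 0.16 SE, adjusted p = 0.951).

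Upstream sensors had values on the same side. In the list of Toll-like receptors and adaptors, 0 of 21 tested genes passed the adjusted test, 19 were above 0 and the median was 0.29 (0.34 without the 3 thalamus-high libraries). The median was 0.32 in replicates 1 and 2 alone but 0.07 in replicates 3 to 5 alone. Tlr2, the receptor for bacterial lipoproteins, was at 0.457, 1.01, 1.55, 0.888 and 2.02 CPM after saline and 2.29, 1.83, 1.93, 2.70 and 1.96 CPM after LPS. The highest saline library lay inside the LPS range (log2 fold change 0.91 ± 0.27 SE, adjusted p = 0.924). Cd14, the LPS co-receptor, had a log2 fold change of 0.44 ± 0.16 SE, and Unc93b1, the chaperone of the endosomal Toll-like receptors, one of 0.33 ± 0.10 SE. Unc93b1 was separated within both library sets, with 15.4 ± 1.41 CPM after saline and 19.4 ± 1.90 CPM after LPS (SD, n = 5).

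MHC class I genes, which present peptides to cytotoxic T cells, had most of their values on the higher side. H2-D1, a classical class I heavy chain, was at 33.9, 24.6, 38.5, 36.1 and 41.5 CPM after saline and 64.4, 45.8, 51.7, 56.2 and 51.6 CPM after LPS. The groups did not overlap (log2 fold change 0.64 ± 0.14 SE, adjusted p = 0.399 in edgeR). H2-K1, the other classical heavy chain of this strain, was at 28.3, 18.9, 27.2, 33.1 and 34.5 CPM after saline and 43.8, 35.1, 42.3, 38.8 and 43.8 CPM after LPS, again without overlap (log2 fold change 0.53 ± 0.13 SE, adjusted p = 0.476). B2m, the class I light chain, had a log2 fold change of 0.31 ± 0.11 SE. The class I genes are near-identical in places, and the counting could divide reads between them, so the values of single members such as H2-Q6 (log2 fold change 1.80 ± 0.47 SE) are uncertain. In the whole class I list, 0 of 17 tested genes passed the adjusted test, 15 were above 0 and the median was 0.21. The exception at an unadjusted p under 0.05 was Calr, the calreticulin chaperone, which was at 443 ± 108 CPM after saline and 387 ± 105 CPM after LPS (SD, n = 5) and lower within both sets. In the class II list, 0 of 9 passed, 7 were above 0 and the median was 0.54, or 0.34 without the 3 thalamus-high libraries. The class I median was 0.34 in replicates 1 and 2 alone and 0.17 in replicates 3 to 5 alone. For class II these medians were 0.69 and 0.15. H2-Aa, a class II alpha chain, was at 0.797 ± 0.423 and 1.45 ± 0.531 CPM (SD, n = 5).

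Complement genes, which tag cells and synapses for removal, had most of their values above 0. Of 16 tested complement genes 0 passed the adjusted test, 14 were above 0 and the median was 0.30, or 0.24 without the 3 thalamus-high libraries. The median was 0.65 in replicates 1 and 2 alone but 0.15 in replicates 3 to 5 alone. C4b, a component of the classical pathway made by astrocytes and oligodendrocytes, was at 38.3 ± 9.28 CPM after saline and 50.6 ± 3.92 CPM after LPS (SD, n = 5; log2 fold change 0.44 ± 0.15 SE, adjusted p = 0.951). The C1q subunits of microglia differed less: C1qa had a log2 fold change of 0.29 ± 0.12 SE and C1qb one of 0.30 ± 0.14 SE. C3, the central component, was rare, at 0.525 ± 0.236 CPM after saline and 0.857 ± 0.289 CPM after LPS. The summed level of the list was 167 to 339 CPM after saline and 251 to 349 CPM after LPS, and the LPS libraries lay above the saline ones in replicates 1 and 2, while the groups overlapped in replicates 3 to 5.

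Interferon-regulated genes had values above 0 that depended on the libraries. In the interferon response list, 0 of 25 tested genes passed, 21 were above 0 and the median was 0.19. It was 0.39 in replicates 1 and 2 alone and 0.09 in replicates 3 to 5 alone. Without the 3 thalamus-high libraries 14 genes were above 0 and the median was 0.09. Irf7, the transcription factor that amplifies type I interferon, was at 1.45 ± 0.664 CPM after saline and 2.55 ± 0.351 CPM after LPS (SD, n = 5; log2 fold change 0.82 ± 0.23 SE, adjusted p = 0.842), and at 0.82 without those libraries too. Parp14, an ADP-ribosyltransferase induced by interferon, had 4.42 and 4.26 CPM in LPS libraries 1 and 2 and 1.30 to 1.80 CPM in LPS libraries 3 to 5, so the 2 library sets differed. All 11 tested interferon-inducible GTPases were above 0 in the full fit and 8 without the 3 libraries. Gbp2, a guanylate-binding protein, had a log2 fold change of 0.69 in the full fit and of 0.43 without them.

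Most NF-kB signalling genes could be measured, but few cytokines and chemokines. In the NF-kB list 0 of 27 tested genes passed, 21 were above 0, 8 were higher at an unadjusted p under 0.05, beside 2.91% of all genes, and the median was 0.17. It was 0.21 in replicates 1 and 2 alone and 0.16 in replicates 3 to 5 alone. Without the 3 thalamus-high libraries 5 were higher at that level, beside 1.9% of all genes. Icam1, the leukocyte adhesion molecule of activated endothelium, was at 1.69, 1.57, 1.23, 1.36 and 2.45 CPM after saline and 3.98, 3.04, 2.51, 2.46 and 2.81 CPM after LPS. The groups did not overlap, though the gap was narrow (log2 fold change 0.84 ± 0.26 SE, adjusted p = 0.950). Neurl3, an E3 ubiquitin ligase gene that LPS is known to induce, also had no overlap between groups (log2 fold change 0.62 ± 0.20 SE). Neither had Nfkb2, the NF-kB subunit of the non-canonical pathway, at 2.20 ± 0.482 and 3.06 ± 0.150 CPM (SD, n = 5). Over all genes, 0.274% were higher without overlap. Stat3, which transmits signals of the interleukin 6 family, was separated within both sets with a log2 fold change of 0.21 ± 0.08 SE. Cxcl16, a chemokine of macrophages and endothelium, was at 1.04 ± 0.171 CPM after saline and 1.95 ± 0.276 CPM after LPS without overlap (log2 fold change 0.90 ± 0.26 SE, adjusted p = 0.842). Of the 23 listed cytokines and chemokines, 13 were too rare to test. Tnf had 2 counts over all saline libraries and 5 over all LPS libraries, Il6 had 5 and 1, Il1b had 9 and 14, and Cxcl10 had 20 and 45.

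Infiltrating blood leukocytes were barely represented. Of the 14 neutrophil and monocyte genes only Csf3r passed the filter on low counts; S100a8 and S100a9, the calprotectin subunits of neutrophils, had 26 and 20 counts over the saline libraries and 36 and 44 over the LPS libraries. Ccr2, the chemokine receptor of inflammatory monocytes, had 9 and 23 counts. Ly6c2 had 3 and 14, while Mpo had 27 and 23 and Plac8 11 and 5. The summed level of this list in replicates 1 and 2 was 8.0 and 5.17 CPM after saline and 12.4 and 10.8 CPM after LPS. In replicates 3 to 5 it was 4.75 to 5.56 CPM after saline and 5.52 to 7.37 CPM after LPS, with overlap. Of the 17 lymphocyte genes 2 could be tested, Trac and Il7r, and neither passed. The other 15 were too rare to test. Among these, Gzma had 0 counts after saline and 15 after LPS and Gzmb 0 and 9, while Cd4 had 30 and 26. Whether leukocyte content differed was therefore not tested.

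No gene of the 3 lists of reactive astrocyte genes passed the adjusted test. Vim, an intermediate filament of reactive astrocytes and vessel cells, was at 31.4, 29.9, 31.6, 36.8 and 40.9 CPM after saline and 46.5, 43.1, 42.0, 48.1 and 43.5 CPM after LPS. All LPS libraries lay above all saline libraries (log2 fold change 0.40 ± 0.10 SE, adjusted p = 0.558). Gfap, the astrocyte intermediate filament, was at 408 ± 47.5 and 482 ± 31.6 CPM (SD, n = 5; log2 fold change 0.24 ± 0.09 SE, adjusted p = 0.955). Lcn2, a lipocalin that binds iron carriers and marks reactive astrocytes, was at 0.0914, 0.0461, 0, 0.0592 and 0.245 CPM after saline and 0.671, 0.731, 0.322, 0.720 and 0.913 CPM after LPS, without overlap (log2 fold change 2.94 ± 0.58 SE, adjusted p = 0.191). Serpina3n, a protease inhibitor often used as a marker of reactive astrocytes, did not follow: its 95% interval was -0.16 to 0.25. In the list of pan-reactive genes 0 of 10 passed, 8 were above 0 and the median was 0.29, or 0.11 without the 3 thalamus-high libraries. In the list of LPS-type reactive genes 0 of 12 passed, all 12 were above 0 and the median was 0.24, or 0.10 without those libraries. In the list of ischaemia-type reactive genes 0 of 10 passed, 6 were above 0 and the median was 0.14, or 4 and -0.04 without those libraries. The homeostatic list had 18 of 19 genes above 0, but its median was only 0.08 and 0 passed; Aqp4, the water channel of astrocyte endfeet, had an interval of -0.03 to 0.34.

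Vessel genes had small values on the higher side. In the list of endothelium and blood-brain barrier 0 of 20 passed, 17 were above 0, 5 were higher at an unadjusted p under 0.05, beside 2.91% of all genes, and the median was 0.14. Without the 3 thalamus-high libraries 3 were higher at that level, beside 1.9% of all genes, and the median was 0.13. Abcb1a, the P-glycoprotein efflux pump, was at 22.9, 23.3, 11.7, 14.4 and 17.9 CPM after saline and 26.7, 31.4, 23.9, 21.4 and 17.9 CPM after LPS. Levels differed more between the sets than between treatments, and within each set the LPS libraries were the higher ones, the closest pair being library 5 of both groups (log2 fold change 0.44 ± 0.12 SE, adjusted p = 0.687). Slc2a1, the glucose transporter of the barrier, had a log2 fold change of 0.31 ± 0.13 SE and Cdh5, the adherens junction cadherin of endothelium, one of 0.40 ± 0.13 SE. Nid1, a basement membrane glycoprotein, was at 5.31 ± 0.817 CPM after saline and 8.14 ± 1.15 CPM after LPS without overlap (SD, n = 5; log2 fold change 0.63 ± 0.15 SE, adjusted p = 0.476). Vwf, the von Willebrand factor of endothelium, stood at 26.4 CPM in LPS library 1, against 13.8 to 17.6 CPM in the other LPS libraries and 8.07 to 14.1 CPM after saline.

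Markers of neighbouring tissue were high in 2 of the 5 LPS libraries. The thalamus list had 10 of 12 genes above 0 and a median of 0.47, but 0.08 without the 3 thalamus-high libraries. Slc17a6, the vesicular glutamate transporter of thalamus and brainstem, was at 42.8 and 52.5 CPM in LPS libraries 1 and 4, and at 6.78 to 23.2 CPM in the other LPS libraries, against 8.16 to 15.8 CPM after saline. Tcf7l2, a transcription factor of thalamic neurons, had a log2 fold change of 0.67 with these libraries and -0.05 without. Vamp1 and Syt2, synaptic vesicle proteins of fast-spiking and caudal neurons, had fold changes of 0.47 and 0.88 with them and 0.09 and 0.43 without, and were the 2 presynaptic genes that were higher at an unadjusted p under 0.05. The list of meningeal and perivascular fibroblasts had 13 of 14 genes above 0 and a median of 0.49, but 5 genes and -0.04 without. Its summed level was 256 CPM in LPS library 1, 128 to 192 CPM in the other LPS libraries and 88.9 to 185 CPM after saline. The summed level of haemoglobin and other red cell genes varied from 47.7 to 151 CPM after saline and from 59.3 to 154 CPM after LPS, with overlap. Most of this sum was Bpgm, with 5683 counts over the saline libraries and 5837 over the LPS libraries. The beta-globin gene Hbb-bs had 937 and 1761 counts and ran from 0.457 to 40.1 CPM within the saline group, so the sum understates how far the globins varied. All 6 tested genes of this blood list had a fold change above 0, with a median of 1.14, or 1.1 without the 3 thalamus-high libraries, and 0 passed the adjusted test. The part of blood in the immune and myeloid results was not tested. The part of neighbouring tissue in the results above was not tested beyond the fits without those libraries.

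**Figure D3:**
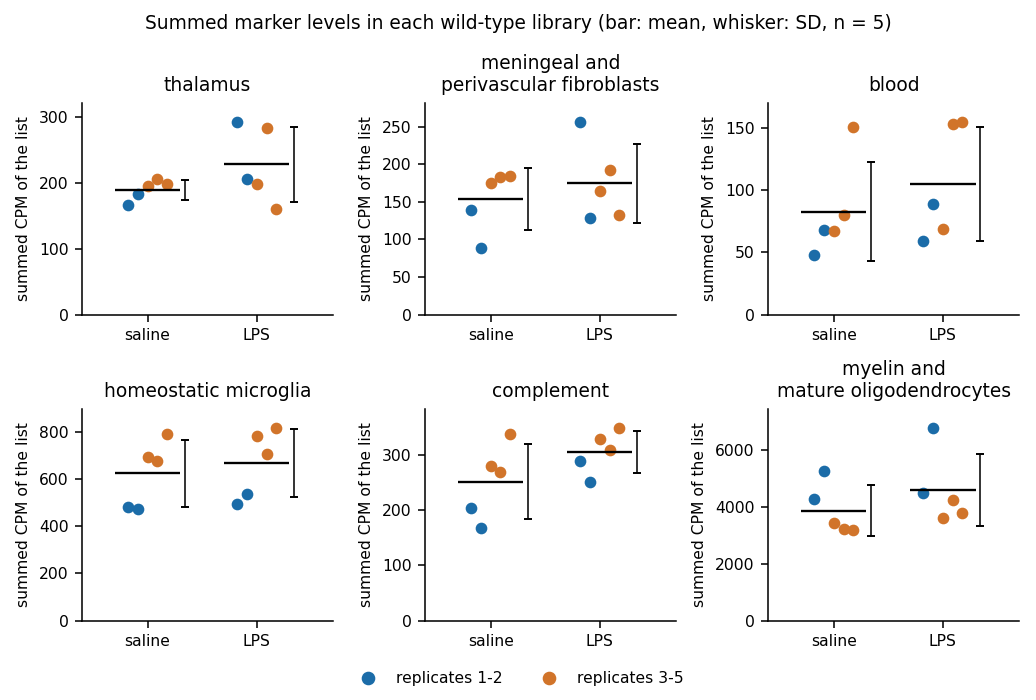
Summed level (CPM) of 6 marker lists in each wild-type library, coloured by library set, with the mean as a bar and the SD as a whisker (n = 5). The thalamus panel shows LPS libraries 1 and 4 above the rest; the microglia and myelin panels show that the library sets differed more than the treatments.

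Myelin genes had small values above 0. All 17 tested genes of the list were on that side, with a median of 0.21 and 0.27 without the 3 thalamus-high libraries, and 0 passed the adjusted test. Mobp, a myelin structural protein, was at 505, 635, 285, 248 and 230 CPM after saline and 610, 996, 309, 359 and 294 CPM after LPS. Library 2 was the highest of each group and the second set was lower than the first in both (log2 fold change 0.41 ± 0.17 SE, unadjusted p = 0.0286). Mbp, the myelin basic protein, had a log2 fold change of 0.25 ± 0.11 SE. The genes of this list come from 1 cell type and share their libraries, so they are not independent.

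Most neuronal lists had medians just below 0, where all genes had 45.5% above 0 and a median of -0.01. Among CA1 and CA3 pyramidal neuron markers 3 of 15 were above 0 (median -0.10), among GABA receptors 3 of 15 (median -0.07), among presynaptic vesicle genes 5 of 21 (median -0.05), among postsynaptic scaffold genes 5 of 20 (median -0.04) and among glutamate receptors 7 of 22 (median -0.04). No gene of these lists passed the adjusted test, and without the 3 thalamus-high libraries the counts above 0 were 4, 7, 9, 11 and 8. The medians were then -0.06, -0.01, -0.01, 0.01 and -0.02, beside -0.01 for all genes. Voltage-gated channels had 10 of 22 above 0 (median -0.001), and 13 of 22 (median 0.03) without those libraries. Dentate granule cell genes had 6 of 14 (median -0.03), and 10 of 14 (median 0.03) without them. Grik2, a kainate receptor subunit, was lower within both sets (58.5 ± 14.7 CPM after saline, 49.9 ± 8.57 CPM after LPS; SD, n = 5). Gabra2, a GABA-A receptor subunit, was at 100 and 90.9 CPM in saline libraries 1 and 2 and at 64.4 and 58.9 CPM in LPS libraries 1 and 2, while the second set overlapped. The immediate early genes had 5 of 18 above 0 and a median of -0.16, and 10 of 18 and 0.01 without the 3 libraries. For Bdnf, the brain-derived neurotrophic factor, the 95% interval was -0.36 to 0.12. In the interneuron and neuropeptide list 6 of 18 were above 0. Htr3a, the ionotropic serotonin receptor of a class of interneurons, was at 12.0 ± 2.14 CPM after saline and 9.22 ± 2.92 CPM after LPS (SD, n = 5; log2 fold change -0.40 ± 0.13 SE, adjusted p = 0.950), and Crh, the corticotropin-releasing hormone, had a log2 fold change of -0.69 ± 0.26 SE, and of -0.40 without the 3 thalamus-high libraries.

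Of the genes on the lower side none passed the adjusted test. Dmac1, an assembly factor of mitochondrial complex I, came first. It was at 21.2, 21.5, 26.9, 28.3 and 28.3 CPM after saline and 18.4, 15.3, 24.5, 20.6 and 20.9 CPM after LPS. Within each set all LPS libraries were below all saline libraries (log2 fold change -0.34 ± 0.08 SE, adjusted p = 0.476). Rdh12, a retinol dehydrogenase, was at 2.02 to 2.40 CPM after saline and at 1.23 to 1.66 CPM after LPS, without overlap (log2 fold change -0.63 ± 0.18 SE, adjusted p = 0.823). Crtac1, an extracellular matrix protein of neurons, was at 124 ± 30.7 and 96.8 ± 28.4 CPM (SD, n = 5; log2 fold change -0.37 ± 0.12 SE). Bbs12, a chaperonin-like gene of the primary cilium, had a log2 fold change of -0.51 ± 0.15 SE. Car12, a membrane carbonic anhydrase, and Slc26a4, an anion exchanger, had -0.37 and -0.32, and Slc9a4, a sodium-proton exchanger, -0.52. Krt2, a keratin gene, had -0.49, Cdpf1 -0.35 and Mblac2 -0.20. Mirt1, a non-coding RNA gene, had -1.23, but a single saline library at 12.7 CPM lay far above the other saline libraries at 1.36 to 2.40 CPM.

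Lists of oxidative phosphorylation, proteasome and chaperone genes had medians just below 0. Of 77 tested nuclear genes of oxidative phosphorylation 3 were above 0, with a median of -0.07 (9 of 77 and -0.07 without the 3 thalamus-high libraries). Their summed level in replicates 3 to 5 was 14750 to 15470 CPM after saline and 14040 to 15350 CPM after LPS, with overlap. In replicates 1 and 2 it was 8825 and 8440 CPM after saline and 8228 and 8272 CPM after LPS. Genes of such a list share their libraries and are not independent. Of 24 proteasome genes 1 was above 0 (median -0.05), and of 20 heat shock and HSP90 chaperone genes 2 (median -0.12); without the 3 thalamus-high libraries these were 7 of 24 (median -0.03) and 4 of 20 (median -0.06). No gene of these 3 lists passed the adjusted test, and the size factors of DESeq2 in place of TMM gave the same counts above 0. Among chaperones, Hsp90b1 of the endoplasmic reticulum and Dnajb4, an HSP40 co-chaperone, were lower within both sets, beside 1.01% of all genes, by -0.13 ± 0.07 and -0.16 ± 0.08 (log2 fold change, SE). Cholesterol synthesis held 2 genes of 21 that were lower within both sets, beside 1.01% of all genes, Mvd with a log2 fold change of -0.37 ± 0.14 SE and Msmo1 with -0.21 ± 0.12 SE, and its list had 7 of 21 genes above 0 (median -0.09), or 10 of 21 (median -0.0043) without those libraries. Slc2a3, the neuronal glucose transporter, was lower within both sets as well, with a 95% interval of -0.26 to 0.00. Other lists of protein handling did not share this side to the same degree. Lysosome and autophagy genes had 13 of 23 above 0 (median 0.03) and unfolded protein response genes 7 of 18 (median -0.02). Cytosolic ribosomal genes had 21 of 81 above 0, but their median of -0.01 was that of all genes.

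Clock genes and the glucocorticoid response completed the survey. In the circadian list 0 of 16 passed, 13 were above 0, 4 were higher at an unadjusted p under 0.05, beside 2.91% of all genes, and the median was 0.13. Dbp, a clock output transcription factor, was at 45.8 ± 10.5 CPM after saline and 58.8 ± 4.05 CPM after LPS (SD, n = 5), Nr1d2, the repressor REV-ERB beta, at 82.9 ± 13 and 95.5 ± 7.17 CPM, and Bhlhe41, another clock repressor, at 36.9 ± 4.54 and 42.1 ± 2.69 CPM. Nr1d2 and Bhlhe41 were higher within both sets. The hour of tissue collection is not in the labels. Of 22 glucocorticoid response genes 0 were past an unadjusted p of 0.05 in either direction and 13 were above 0. Fkbp5 itself, the gene that the other genotype lacks, was at 63.1 ± 6.71 CPM after saline and 66.2 ± 4.87 CPM after LPS, with a 95% interval of the log2 fold change of -0.14 to 0.28.

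**Figure D4:**
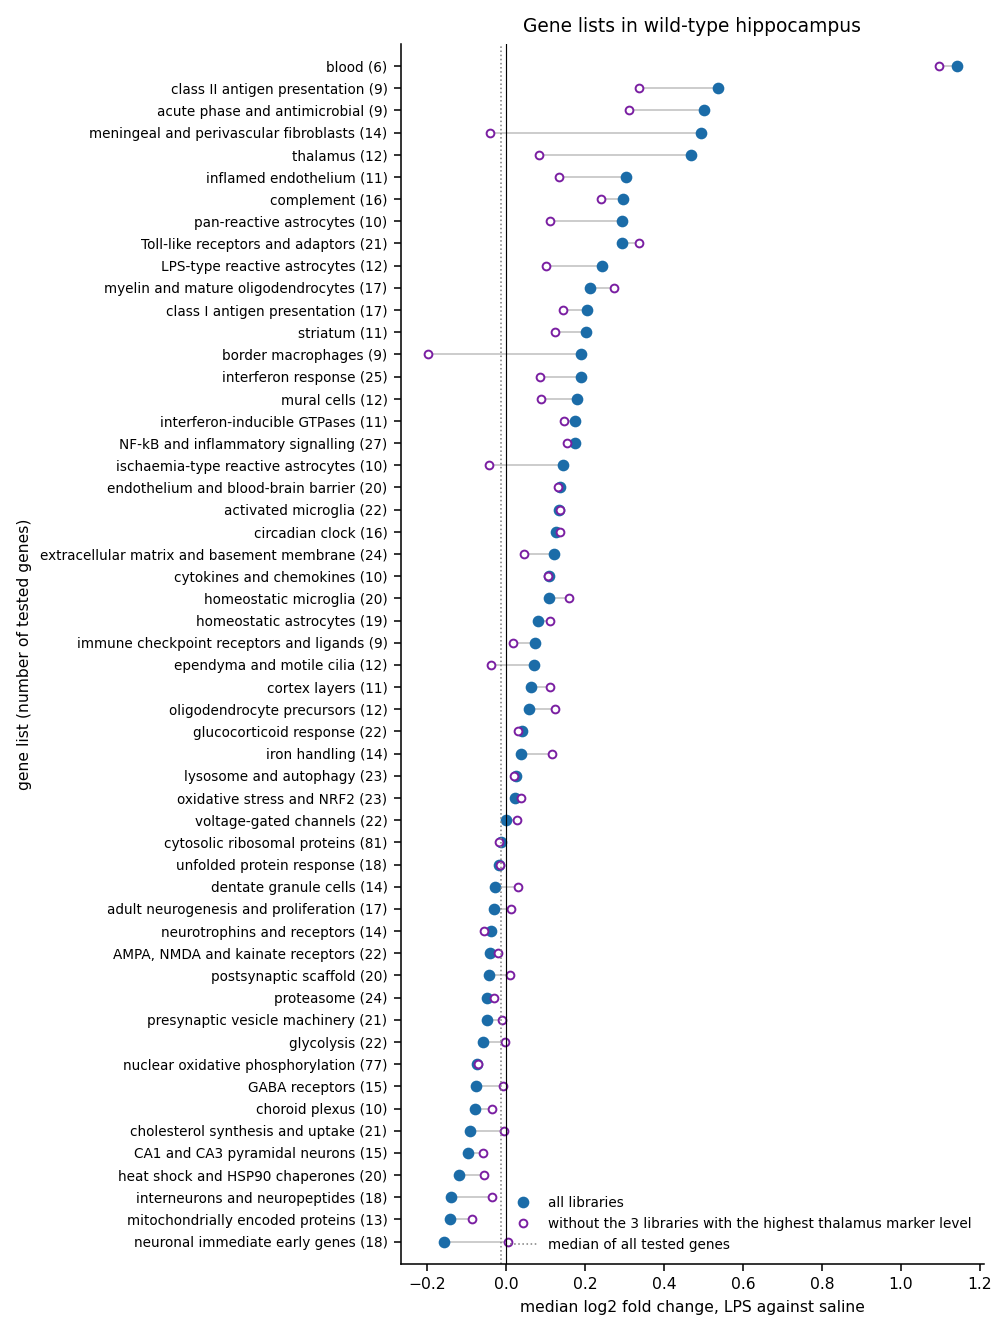
Median log2 fold change of LPS against saline in wild-type hippocampus for each of the 54 gene lists with at least 4 tested genes, in all libraries (filled) and without the 3 libraries with the highest thalamus marker level (open). In all libraries, immune lists lie above 0, energy lists just below, and neuronal lists at or just below 0. The meningeal, thalamus and border macrophage medians move most between the fits.

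The same contrast in Fkbp5 knockout mice shares no library with the wild-type one. It had 7 genes past an adjusted p of 0.05 (0.0426%). The test of the difference between genotypes called 0 of 16419 genes (0%); its smallest adjusted p was 0.989 in edgeR, and 472 genes (2.87%) had an unadjusted p under 0.05. Of the 478 wild-type genes on the higher side, 337 (70.5%) were also above 0 in knockout, beside 52.5% of all genes. Of the 224 on the lower side, 118 (52.7%) were also below 0, beside 47.5% of all genes. Both contrasts held thalamus-high LPS libraries, that of knockout being library 1 at 259 CPM of summed thalamus markers. Without the 3 thalamus-high libraries, 213 of the 478 genes were still higher in wild-type at an unadjusted p under 0.05 (edgeR). The shares above are not given without these libraries, and the part of neighbouring tissue in them was not tested. Lag3 had a log2 fold change of 1.18 ± 0.17 SE in knockout, and H2-D1 one of 0.78 ± 0.14 SE, each close to its wild-type value. The vessel genes Nid1, Abcb1a and Icam1 had -0.17, -0.10 and 0.03 in knockout. Their differences between genotypes were 0.80 ± 0.21, 0.54 ± 0.17 and 0.81 ± 0.37 (log2, SE), with unadjusted p of 0.00105, 0.00423 and 0.0406 and an adjusted p of 0.989 for each. Dmac1 had 0.13 in knockout and a difference of -0.47 ± 0.11 (log2, SE; unadjusted p = 0.000461, adjusted p = 0.989). Ddc, the aromatic amino acid decarboxylase of monoamine synthesis, had 0.69 ± 0.16 SE in wild-type and -0.07 in knockout, and Dnase2a, a lysosomal DNase, had 0.56 ± 0.13 SE and 0.02. These genes were named by rules that used their wild-type p or earlier results of these data, and the difference reuses the wild-type values. Knockout values nearer 0 and a small unadjusted p of the difference can follow from that choice alone. Among the nuclear genes of oxidative phosphorylation 61 of 77 were above 0 in knockout, where 3 were in wild-type; 1 of the 77 had an unadjusted interaction p under 0.05. The medians were 0.05 and -0.07, and the 77 genes share their libraries and are not independent. The meningeal list had 0 of 14 genes above 0 in knockout and 13 in wild-type, with 6 at an unadjusted interaction p under 0.05, and its level moved with LPS library 1 as given above.

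**Figure D5:**
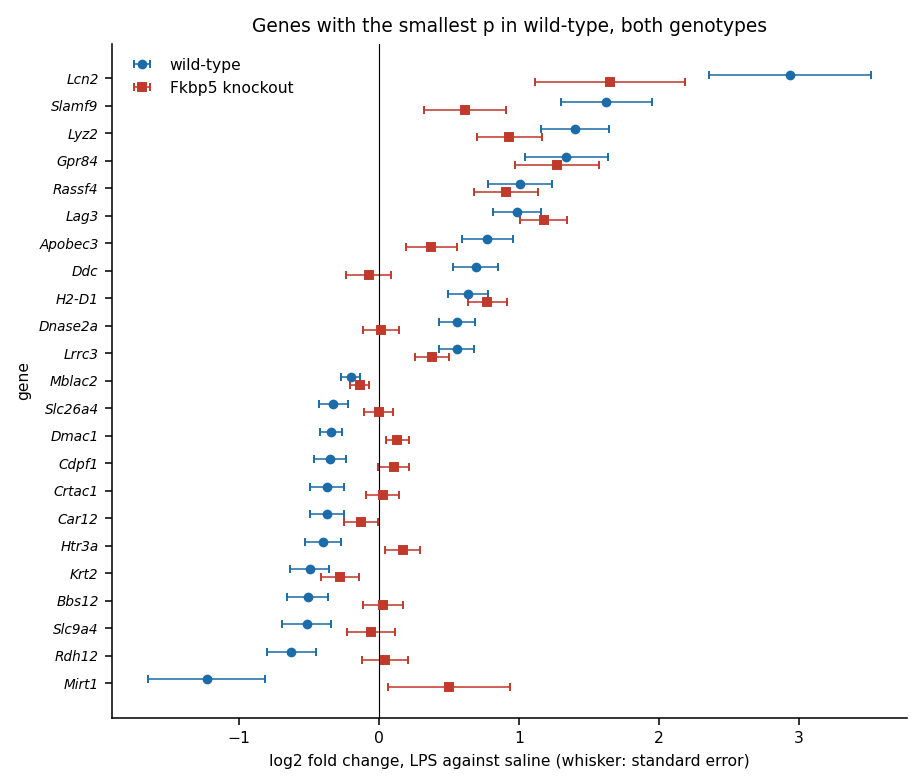
Log2 fold change of LPS against saline (point) and its standard error (whisker) in wild-type and Fkbp5 knockout for the genes with the smallest p in wild-type on each side, without Saa3, whose fitted fold change depends on the prior count. Lag3, Gpr84 and H2-D1 lie together in both genotypes, and Ddc, Dnase2a and Dmac1 lie near 0 or on the other side in knockout; 0 genes passed the adjusted test of this difference. The genes were picked by their wild-type p, so knockout values nearer 0 can follow from that choice alone.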

How the data were processed

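RNA was measured in 20 hippocampal libraries. The table deposited by the authors holds unnormalized whole-number counts for 55536 gene identifiers; per the submitters' processing notes, reads were trimmed with Trimmomatic 0.38 and counted with featureCounts 1.6.0. The aligner, the annotation release and the strand setting are not given in the sources used here. All identifiers matched GENCODE M21. Differences were tested with edgeR 4.0.16 (R 4.3.3) on the counts: TMM scaling, the default filter by group (16419 genes kept), robust quasi-likelihood fit of all 20 libraries with terms for the 4 groups and the library set, Benjamini-Hochberg threshold 0.05. Levels are CPM with TMM factors. A library at 0 was read as up to 3 counts over the group; such limits cover counting error only. At these totals a gene of 1 CPM has few reads, so rare genes are less precise. The script was tested on simulated data. Alternatives used limma 3.58.1 and DESeq2 1.42.0. Lists (56, of which 54 had at least 4 tested genes) and named genes were chosen with earlier results of these data known. The rule named genes past the threshold, the 12 smallest p on each side, the leading and most abundant members of each list, defining markers and list genes separated within both sets. The meaning of the replicate numbers is not given. With group and set means taken out, same-numbered wild-type libraries correlated at 0.0168 to 0.398, highest for numbers 1 (0.398) and 2 (0.281). Differently numbered libraries of the same set were lower in number 1 and 2, and were at -0.422 to 0.0427 over both sets. Pairing was not established, and what the numbers share was not tested. A fit with a replicate block is given below.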

Additional observations from a re-analysis of the deposited data

Results flagged for a closer look

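A library was singled out where its gap to the nearest library of its group of 5 exceeded Dixon's critical ratio of 0.71 to the group's range; 17 of 306 checks were above it, and about 1 in 20 is met by chance. The pituitary hormone genes Gh and Prl were at 19.2 and 3.94 CPM in LPS library 1, against at most 2.64 and 0.406 CPM in the other LPS libraries. Pax7, a transcription factor of the dorsal midbrain, was at 0.0612 CPM in saline library 5 and at 0 in the other saline libraries, a difference of 1 read. In LPS library 5 the ribosomal RNA-like gene CT010467.1 was at 4068 CPM against 125 to 157 CPM in the rest of its group, and mt-Co3, a cytochrome oxidase subunit gene, at 141 CPM against 19.2 to 28.3 CPM. These genes were chosen after their values were seen.

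Among the genes of the report, saline library 2 was high for Stat3 at 47.1 CPM (others 33.7 to 36.8), saline library 5 for the beta-globin gene Hbb-bs at 40.1 CPM (others 0.457 to 6.69) and saline library 1 for Mirt1 at 12.7 CPM (others 1.36 to 2.40). Saline library 1 was low for Serpina3n at 52.0 CPM (others 57.0 to 58.6) and for Bdnf at 40.9 CPM (others 52.1 to 54.8).

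Among summed list levels, LPS library 1 was high for the interferon response at 186 CPM (others 122 to 138), and saline library 1 for neutrophil and monocyte genes at 8.0 CPM (others 4.75 to 5.56). Saline library 1 was low for heat shock and HSP90 chaperones at 4213 CPM (others 6220 to 6563). LPS library 2 was high for myelin at 6762 CPM (others 3618 to 4498) and for oligodendrocyte precursors at 793 CPM (others 558 to 626), and saline library 2 for oligodendrocyte precursors at 756 CPM (others 549 to 588) and for AMPA, NMDA and kainate receptors at 5239 CPM (others 4345 to 4581). The cause was not tested.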

How the results depend on the processing

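The 3 higher genes at an adjusted p under 0.05 became 0 without the library set term and in either library set alone, 1 with only the wild-type libraries (Lag3; Saa3 did not pass the filter on low counts there and was not tested), with limma-voom (Saa3) and with at least 1 CPM in 5 libraries (Saa3), and 8 with the DESeq2 Wald test, which added Slamf9, Lcn2, H2-D1, Rassf4 and Lrrc3. With no filter on low counts 134 genes were higher and 23 lower, and 85 differed between genotypes; 26 of the 157 called genes were outside the tested set. Among the first were Pax7 and Shox2, which were high in LPS libraries 1 and 4, and Gh. The level of Gh was 19.2, 2.64, 2.58, 1.08 and 0.196 CPM in LPS libraries 1 to 5, against at most 0.369 CPM after saline. With the replicate block in place of the library set term the same 3 genes were called (adjusted p = 0.00787 for each), and DESeq2's size factors kept them too. Leaving out each library gave 1 to 2 higher and 0 lower genes. The genes separated within both sets numbered 481 higher and 569 lower without the 3 thalamus-high libraries and, with 1 library left out, 216 to 393 higher and 240 to 513 lower; fewer libraries make separation easier. The sign of the log2 fold change turned for 5 genes: Aif1 was at -0.084 with limma-voom and -0.0366 in replicates 3 to 5 alone, Serpina3n at -0.16 in replicates 1 and 2 alone, and P2ry12 at 0.0545, Tcf7l2 at -0.0518 and Col1a1 at -0.0117 without the 3 libraries, the last 2 from 0.67 and 0.58 with them. With 1 library left out, Aif1 ranged from -0.0826 to 0.0976, P2ry12 from -0.134 to 0.00057 and Serpina3n from -0.0246 to 0.0898. Of 1802 gene fold changes in 21 alternatives 12 changed sign; of 1134 list medians 45 moved by more than the spread between libraries. The cause was not tested. Depth limits the cytokines and leukocyte genes, most of which were too rare to test.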

Other observations

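Some genes too rare for the test had reads on 1 side. Ccl5, a chemokine for T cells and monocytes, had 5 counts over the saline libraries and 32 over the LPS libraries. Its level was 0, 0.185, 0, 0 and 0.0612 CPM after saline and 0.434, 0.244, 0.322, 0.360 and 0.261 CPM after LPS, without overlap. Gzma, a granzyme of cytotoxic lymphocytes, had 0 counts after saline and 15 after LPS, all of them in LPS libraries 1 and 2 (0.276 and 0.325 CPM). Both were chosen after their values were seen, and neither was tested.

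Transcription factors of other brain regions were present in LPS libraries 1 and 4. Shox2 of the thalamus was at 11.9 and 7.56 CPM there and at 0.261 CPM or less in the other LPS libraries. Barhl1 was at 9.43 and 4.68 CPM and Pou4f1 of the habenula at 6.15 and 5.10 CPM, against at most 0.131 and 0.203 CPM in the other LPS libraries. Otx2 was at 15.1 and 5.64 CPM against at most 1.44 CPM. These genes were chosen after their values were seen. mt-Co3 was at 367 and 343 CPM in saline libraries 4 and 5 and at 22 to 31.6 CPM in saline libraries 1 to 3.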
